A study of Mus musculus with 18 samples.

Results

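The genes described here are the translation initiation factors measured in MIN6 cells, taken as the coding RefSeq genes whose symbols begin with Eif. The eIF2 kinases (Eif2ak), the eIF4E-binding proteins (Eif4ebp), Eif4enif1 and pseudogenes were left out by the rule. Of 48 such genes in the tables, 44 had reads in all 18 libraries and form the set. Of these, 42 had at least 1 transcript with reads in every library and were tested among 6929 genes kept in the same way, while Eif2d and Eif4g3 had reads in every library only when their transcripts were added up. The 4 genes outside the set are Eif2s3y, Eif3j1, Eif4e1b and Eif5a2, which had reads in 1, 17, 6 and 15 libraries.

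MIN6 is an insulin-secreting line derived from a mouse insulinoma, so every group is a culture of the same tumour line. CPA blocks the SERCA pump that fills the ER with calcium and thereby causes ER stress. Control cells received DMSO for 18 h, CPA1 cells 200 µM CPA for 1 h and CPA18 cells 200 µM CPA for 18 h, so the 1 h treatment was compared with cells held in vehicle for 18 h. Each treatment was sequenced by mRNA-seq and by Ribo-seq (the fragments protected by ribosomes, or footprints) in 3 independent experiments, which gives 3 libraries per treatment and assay.

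Initiation begins when eIF2, loaded with GTP and the initiator methionyl-tRNA, joins the small ribosomal subunit together with eIF1, eIF1A, eIF3 and eIF5. The cap-binding complex eIF4F, made of eIF4E, the helicase eIF4A and the scaffold eIF4G, brings the mRNA, and the complex scans to a start codon, where eIF5 triggers GTP hydrolysis and eIF5B joins the large subunit. eIF2B recharges eIF2 with GTP. In ER stress the kinase PERK phosphorylates eIF2α, which turns eIF2 into an inhibitor of eIF2B and lowers initiation on most mRNAs.

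Total counts ran from 520960 to 4755030 in mRNA-seq and from 168129 to 1083297 in Ribo-seq, with the 3 CPA18 Ribo-seq libraries between 168129 and 553842. All 10 β-cell markers examined (Ins1, Ins2, Iapp, Pdx1, Nkx6-1, Nkx2-2, Mafa, Slc2a2, Chga and Pcsk1) had reads in 18 of 18 libraries, as did the α-cell gene Gcg at 21.7 to 235 RPKM. The acinar gene Prss1, the fibroblast gene Col3a1 and the leukocyte gene Ptprc had 0 reads in all of them. Other markers of such cells had a few reads, with Col1a1 (fibroblasts) in 11 libraries at no more than 7 reads, Ctrb1 and Cpa1 (acinar cells) in 2 and 1 libraries, and Krt19 (ducts) and Pecam1 (endothelium) in 5 each. Of the other islet hormones Sst had reads in 13, Ppy in 11 and Ghrl in 4 libraries. A few transcripts took a large and uneven part of the reads. Lars2, the mitochondrial leucyl-tRNA synthetase, took 4.75% to 54.8% of the mRNA-seq reads of a library, with 45.1%, 7.19% and 15.1% in control, 53.5%, 38.1% and 8.27% in CPA1 and 54.8%, 5.46% and 4.75% in CPA18. Ins1 and Ins2 together took 6.60% to 20.9% of the control and 1.44% to 5.06% of the CPA18 mRNA-seq reads, and 18.0% to 21.1% and 5.39% to 7.03% of the Ribo-seq reads. Changes scaled to the library total are therefore given with the values scaled to the total without Ins1, Ins2 and Lars2 wherever the call differs.

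The 5′ ends of 6 initiation factor mRNAs are shown because a tract of pyrimidines that begins with C at the cap, the TOP motif, marks the mRNAs of ribosomal proteins and of some initiation factors. Each line gives 10 bases before and 20 bases from the RefSeq start site of the gene in GRCm38.p6, read on its strand, and capitals mark the unbroken run of C and T from the start site on. Eif3f, Eif3k and Eif3l lost footprints within 1 h of CPA, and Eif3c and Eif3g gained them by 18 h. Eif2s3x is the other initiation factor with a full motif among those with a promoter entry.
Eif3f (chr7:108934405-108934434, plus strand): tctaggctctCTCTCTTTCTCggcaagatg
Eif3k (chr7:28981869-28981898, minus strand): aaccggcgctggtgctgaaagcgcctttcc
Eif3l (chr15:79075213-79075242, plus strand): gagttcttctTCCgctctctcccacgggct
Eif3c (chr7:126566347-126566376, minus strand): ctgctcagagggactcggcagcttagctgg
Eif3g (chr9:20898571-20898600, minus strand): acccgggctgggagctgcgtggagttaaga
Eif2s3x (chrX:94212632-94212661, minus strand): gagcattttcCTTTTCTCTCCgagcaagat

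The motif was searched as a C at the annotated start that opens a run of at least 5 letters C or T on the strand of the gene. It was present in 2 of the 35 initiation factors with an entry (5.71%), Eif3f and Eif2s3x, in 14 of 61 ribosomal protein genes (22.95%), in 158 of 5591 fitted genes (2.83%) and in 813 of all 27025 genes (3.01%). When the C was allowed within 10 bases of the start on either side, the shares were 34.3%, 60.7%, 35.7% and 34.4% in the same order. The search reads annotated starts, and a start that lies a few bases off would miss the motif. Eif3e, Eif3h, Eif3i, Eif4g2 and Eif6 are among the members without an entry and could not be searched.

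The start codons of 4 genes are shown because they set apart 1 member and a pair of paralogues. Capitals mark the start codon, the position is that of the codon in GRCm38.p6, and Eif4g2 is the member annotated with a start other than ATG.
Eif4g2 (chr7:111081545-111081547, minus strand): gccgccaaaGTGgag
Eif1 (chr11:100320130-100320132, plus strand): tcgtatcgtATGtcc
Eif1b (chr9:120492811-120492813, plus strand): tagtgtcgcATGtcc
Eif5 (chr12:111539616-111539618, plus strand): taagccaaaATGtct
The leader of Eif3f is 17 bases long, that of Eif2s3x 18, that of Eif3h 4 and that of Eif3e 44 in the RefSeq transcripts. Eif1 has a leader of 181 bases and Eif1b one of 205.

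Together the initiation factors took a larger part of the reads after 18 h of CPA. In such cultures fewer cells of a kind and less RNA per cell cannot be told apart, and all levels are relative to the library. In Ribo-seq the 42 genes held 0.801%, 0.735% and 0.847% of the reads in the control libraries of experiments 1, 2 and 3, 0.763%, 0.752% and 0.659% in CPA1 and 1.25%, 1.24% and 1.22% in CPA18. The CPA18 libraries lay above all control and CPA1 libraries, which overlapped each other. In mRNA-seq the shares were 0.398%, 0.545% and 0.637% in control, 0.353%, 0.438% and 0.704% in CPA1 and 0.560%, 1.18% and 1.23% in CPA18, and here experiment 1, with its high Lars2 share, put a CPA18 library among the controls. With the reads of Ins1, Ins2 and Lars2 removed, the mRNA-seq shares were 0.842% ± 0.0950 in control, 0.904% ± 0.0382 in CPA1 and 1.32% ± 0.0423 in CPA18 (SD, n = 3), and those of Ribo-seq 0.990% ± 0.0534, 0.902% ± 0.0552 and 1.36% ± 0.0164. The separation of CPA18 from both other treatments was then present in both assays. With 3 libraries in each group no two-sided exact permutation test can go below 0.1, so the shares were not tested.

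**Figure D1:**
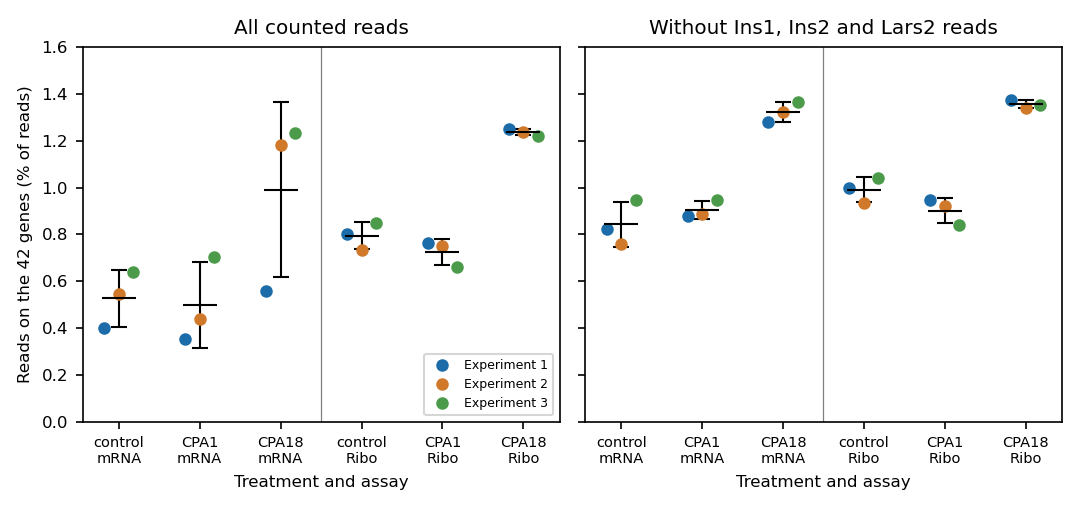
Share of reads (percent, y axis) on the 42 tested initiation factors in each library by treatment (x axis), for mRNA-seq and Ribo-seq, of all reads and of reads without Ins1, Ins2 and Lars2. Points are experiments and bars the mean with its SD, and without those 3 genes the CPA18 libraries (1.32% ± 0.0423 in mRNA-seq, 1.36% ± 0.0164 in Ribo-seq) lie above all others.

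After 1 h of CPA no initiation factor passed the test in mRNA-seq, while footprints on 4 subunits of eIF3 fell and those on Eif4g2 rose. In mRNA-seq 0 of 42 genes passed an adjusted p of 0.05 in edgeR's quasi-likelihood test, where 0.505% of all fitted genes rose and 0.433% fell. The count was also 0 at an unadjusted p under 0.05 and 0 after adjustment with DESeq2 and limma. With the total that left out Ins1, Ins2 and Lars2 it was 0 as well, with 3 at an unadjusted p under 0.05, where 0.404% of all genes rose and 0.00% fell. In Ribo-seq 1 gene rose (2.38% of the members, against 3.75% of all genes) and 4 fell (9.52%, against 2.92%). The median log2 change of the members was -0.08 and that of all genes 0.07. Without Ins1, Ins2 and Lars2 in the total the counts were 1 and 5, with 3.91% of all genes higher and 3.10% lower. Without the experiment as a block 3 genes fell and none rose, where 3.16% of all genes passed in either direction. With at least 10 reads in every library 1 of 30 members rose and 5 fell (16.7%), where 178 and 226 of 2296 genes did.

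eIF3 is the largest initiation factor. It binds the small subunit, keeps it apart from the large one and contacts eIF4G, and its subunits a, b, c, g and i are present from yeast to mammals whereas e, f, h, k, l and m belong to the larger complex of animals and plants. Eif3f, a subunit of the MPN family, had Ribo-seq levels of 257, 269 and 233 RPKM in control and 104, 106 and 113 RPKM in CPA1. The groups did not overlap, and the footprints fell by 1.23 ± 0.18 on the log2 scale (SE, adjusted p = 1.81e-07). Its mRNA-seq levels of 110, 179 and 190 RPKM in control and 91.4, 122 and 205 RPKM in CPA1 overlapped, with a log2 change of -0.21 ± 0.25 (adjusted p = 0.976).

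Eif3e, a subunit of the PCI family, fell from 190, 187 and 210 RPKM to 135, 112 and 68.9 RPKM in Ribo-seq, by 0.93 ± 0.20 (adjusted p = 0.00028). The fall was uneven, with log2 ratios of -0.49, -0.74 and -1.60 in experiments 1, 2 and 3. Eif3k, which pairs with Eif3l at the edge of the complex, fell from 168, 212 and 227 RPKM to 108, 101 and 97.4 RPKM, by 0.95 ± 0.22 (adjusted p = 0.0011). Neither gene's CPA1 values reached its control values. Eif3l fell from 237, 222 and 217 RPKM to 178, 164 and 123 RPKM, by 0.54 ± 0.18, and lay at the threshold (adjusted p = 0.0472).

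Eif3h, the other MPN subunit, went from 279, 249 and 276 RPKM to 207, 193 and 156 RPKM, also without overlap. Its log2 change of -0.54 ± 0.18 did not pass (adjusted p = 0.052) with the library total and passed (adjusted p = 0.043) with the total that left out Ins1, Ins2 and Lars2. The remaining 8 eIF3 genes had log2 changes between -0.48 (Eif3i, adjusted p = 0.121) and 0.30 (Eif3d, adjusted p = 0.511) and did not pass. Footprints on the core subunits Eif3a, Eif3b and Eif3c changed by -0.14, 0.05 and 0.01.

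**Figure D2:**
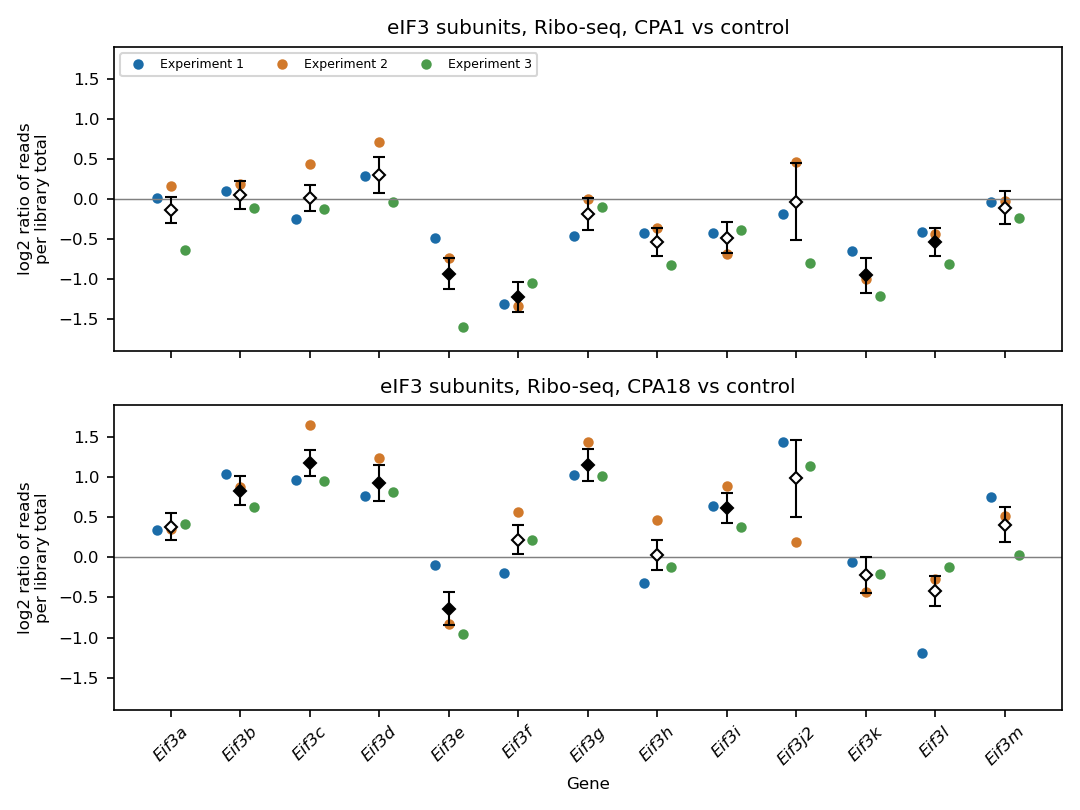
Ribo-seq log2 ratio to control (y axis) of the 13 eIF3 genes (x axis) in CPA1 and CPA18, with a point for each experiment and a diamond for the edgeR estimate with its SE, filled where the adjusted p is under 0.05. At 1 h Eif3e, Eif3f, Eif3k and Eif3l are filled and lie below 0, and at 18 h Eif3e alone is filled below 0 while Eif3b, Eif3c, Eif3d, Eif3g and Eif3i are filled above it.

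The falls of Eif3e, Eif3f and Eif3k passed in each of the 9 fits that left out a single Ribo-seq library. That of Eif3l was lost without any of the control libraries or without CPA1 of experiment 2 or 3, with a log2 change of -0.35 (adjusted p = 0.349) in the last case. They also passed without the experiment as a block, with adjusted p of 0.000369 for Eif3f, 0.0269 for Eif3e and 0.0121 for Eif3k. They did not pass with limma on log2 RPKM at either pseudocount, with log2 changes close to those above and adjusted p of 0.166 and 0.125 for Eif3f, 0.253 and 0.218 for Eif3e and 0.189 and 0.164 for Eif3k. Eif3l was also lost without the block (adjusted p = 0.198), with limma and with DESeq2.

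Eif4g2 encodes DAP5, a relative of eIF4G that lacks the part that binds eIF4E and serves cap-independent initiation, and its own coding sequence opens at the GTG shown above. Its Ribo-seq levels were 46.0, 45.4 and 54.1 RPKM in control and 73.0, 77.8 and 67.6 RPKM in CPA1. All CPA1 values lay above all control values, and the footprints rose by 0.58 ± 0.16 on the log2 scale (adjusted p = 0.0143). The rise was called with all libraries but lost without control experiment 1 or 2 or CPA1 experiment 1 or 2, with log2 changes of 0.48 to 0.61 and adjusted p up to 0.168, and it was lost without the block (adjusted p = 0.087), with the median gene as centre, with the highest transcript per gene and with limma. Its mRNA changed by -0.08 ± 0.25 (adjusted p = 0.989).

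The other factors did not pass at 1 h in either assay. Eif1 footprints were 336, 350 and 486 RPKM in control and 291, 297 and 316 RPKM in CPA1, with a log2 change of -0.36 ± 0.16 (adjusted p = 0.195). The eIF2 subunits Eif2s1, Eif2s2 and Eif2s3x changed by -0.20, 0.12 and -0.42 in Ribo-seq, and the 5 eIF2B subunits by between -0.17 (Eif2b1) and 0.55 (Eif2b3). Eif4e3, a weak cap-binding relative of eIF4E, had the lowest value outside eIF3, -0.997 ± 0.459, and did not pass (adjusted p = 0.206). Its log2 ratios were -1.04, -1.02 and -0.97 in the 3 experiments. They rest on few reads, as Eif4e3 had 2 to 24 reads in a library with a median of 5.5.

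After 18 h of CPA most of the change was upward in both assays. In mRNA-seq 19 of 42 genes rose (45.2%) and 1 fell (2.38%), where 27.0% of all genes rose and 7.89% fell. The median log2 change of the members was 0.59 and that of all genes 0.38. With the total that left out Ins1, Ins2 and Lars2, 17 rose and 1 fell, against 21.2% and 12.4% of all genes, with medians of 0.37 and 0.13. These calls rest on the comparison within experiments: without the block none of the 42 passed in edgeR, 11 had an unadjusted p under 0.05, and 1.98% of all genes passed in either direction. Of the 20 calls, 10 held in each fit that left out 1 mRNA-seq library (Eif1, Eif1ad, Eif2b1, Eif2b4, Eif3b, Eif3c, Eif3d, Eif3g, Eif4a1 and Eif6), and without control experiment 2 only 10 of the 42 genes were called.

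In Ribo-seq 17 genes rose (40.5%) and 1 fell (2.38%), where 25.6% of all genes rose and 6.25% fell. The medians were 0.47 for the members and 0.42 for all genes. With the alternative total 14 rose and 2 fell, against 17.5% and 8.57%, and the medians were 0.29 and 0.24. The members' median thus lay close to that of all genes in this assay, while their share of rises was above the share of all genes. Members were read more deeply: 30 of 42, against 2296 of 6929 genes, had at least 10 reads in every library. Among these, 14 members (46.7%) and 844 genes rose in mRNA-seq at 18 h, and 0 and 203 fell. In Ribo-seq 17 members (56.7%) and 935 genes rose, and 1 and 263 fell. Whether depth accounts for the higher shares of rises was not tested. The second fall under the alternative total was Eif3l, at -0.60 (adjusted p = 0.00909), which changed by -0.42 (adjusted p = 0.0753) with the library total.

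**Figure D3:**
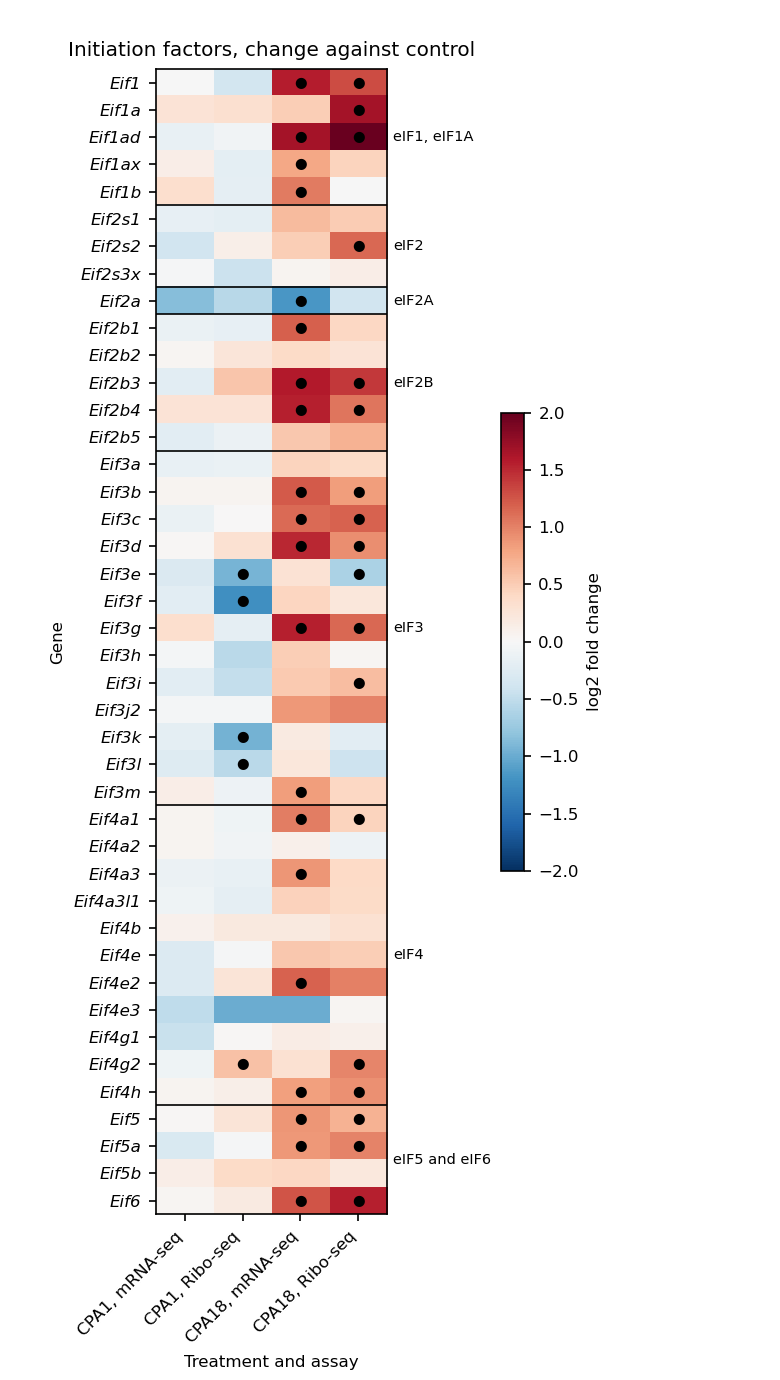
Log2 fold change against control (colour, blue lower and red higher, scale from -2 to 2) of the 42 initiation factors (rows, grouped by factor) in mRNA-seq and Ribo-seq at 1 h and 18 h of CPA (columns), with a dot where edgeR's adjusted p is under 0.05. The CPA1 mRNA-seq column has no dot, the CPA1 Ribo-seq column has 5, and the CPA18 columns have 20 and 18, with Eif2a and Eif3e as the falls.

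Among the factors that guide scanning and start codon choice, eIF1 keeps the scanning ribosome open and strict and eIF1A helps it to settle on the start codon. Per length of coding sequence Eif1 had the highest footprint level of all members, and it rose in both assays. In RPKM, the scale used here, Eif4a1 stood higher in control, at 459, 461 and 499 RPKM. Its mRNA-seq levels were 272, 539 and 630 RPKM in control and 704, 1796 and 1873 RPKM in CPA18, a log2 rise of 1.57 ± 0.26 (adjusted p = 7.67e-08). Its Ribo-seq levels were 336, 350 and 486 RPKM and 852, 951 and 1080 RPKM, a rise of 1.31 ± 0.16 (adjusted p = 3.42e-11). All CPA18 libraries lay above all control libraries in each assay.

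The paralogue Eif1b passed in mRNA-seq and did not pass in Ribo-seq, and the difference between the assays did not pass either (occupancy change -1.08 ± 0.43, adjusted p = 0.406). Its mRNA-seq levels went from 31.4, 57.7 and 81.5 RPKM to 65.0, 140 and 145 RPKM, a log2 rise of 1.04 ± 0.30 (adjusted p = 0.00292, and 0.0592 without control experiment 2). Its footprints were 29.2, 55.1 and 68.5 RPKM in control and 25.96, 32.2 and 82.7 RPKM in CPA18, with a log2 change of -0.01 ± 0.33 (adjusted p = 0.986). The ratio of Eif1 to Eif1b within a library, which no scaling affects, was 11.5, 6.35 and 7.10 in control and 32.8, 29.5 and 13.1 in CPA18 in Ribo-seq, and 8.65, 9.35 and 7.73 and 10.8, 12.8 and 12.9 in mRNA-seq. The ratio was higher in every CPA18 library than in any control library of the same assay.

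Eif1ad, an eIF1A-domain protein named for its fold rather than for a role in initiation, had the largest rise of footprints. It went from 9.87, 8.28 and 7.85 RPKM to 38.6, 23.9 and 41.0 RPKM in Ribo-seq, by 1.97 ± 0.34 (adjusted p = 9.95e-07), and rose by 1.66 ± 0.31 in mRNA-seq (adjusted p = 2.50e-06). Eif1ax, the X-linked eIF1A gene, rose by 0.77 ± 0.31 in mRNA-seq (adjusted p = 0.0377) and did not pass in Ribo-seq at 0.44 ± 0.27 (adjusted p = 0.205). Its mRNA call was lost without control experiment 2 or 3, CPA1 experiment 1 or CPA18 experiment 2 or 3, and with the alternative total (adjusted p = 0.0583).

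Eif1a had few reads, with as few as 2 in a library. Its Ribo-seq levels of 5.08, 3.74 and 3.53 RPKM in control and 33.1, 3.42 and 9.41 RPKM in CPA18 overlapped, and the called rise of 1.66 ± 0.43 (adjusted p = 0.00142) came from log2 ratios of 2.70, -0.13 and 1.42. It was lost without control experiment 1 or CPA18 experiment 1, at 1.00 (adjusted p = 0.169) in the latter case.

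eIF2 carries the initiator tRNA, and its α subunit (Eif2s1) holds the site that stress kinases phosphorylate, its β subunit (Eif2s2) binds eIF5 and eIF2B, and its γ subunit (Eif2s3x) binds GTP and the tRNA. At 18 h 1 of the 3 subunits gained footprints, where 25.6% of all genes did, and the difference between subunits was not tested. Eif2s2 went from 60.6, 41.5 and 77.5 RPKM to 135, 127 and 136 RPKM, a log2 rise of 1.15 ± 0.20 (adjusted p = 1.53e-06), with no overlap. Eif2s1 had values of 43.7, 38.2 and 39.0 RPKM in control and 49.1, 73.4 and 50.4 RPKM in CPA18, also apart, but its change of 0.51 ± 0.22 did not pass (adjusted p = 0.0659). Eif2s3x, at 38.0, 32.7 and 39.9 and then 56.4, 37.1 and 34.2 RPKM, overlapped and changed by 0.14 ± 0.23 (adjusted p = 0.678).

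In mRNA-seq the eIF2 subunits did not pass, with log2 changes of 0.64 ± 0.30 for Eif2s1 (adjusted p = 0.0862), 0.49 ± 0.32 for Eif2s2 (adjusted p = 0.222) and 0.06 ± 0.30 for Eif2s3x (adjusted p = 0.896). The Eif2s2 ratios were -1.05, 1.22 and 0.93 in the 3 experiments, so experiment 1 went the other way. The Ribo-seq ratio of Eif2s2 to Eif2s3x within a library was 1.59, 1.27 and 1.94 in control, 2.32, 2.94 and 1.85 in CPA1 and 2.39, 3.44 and 3.97 in CPA18. The CPA18 ratios were above all control ratios, and the CPA1 ratios overlapped both. The pair sets the subunit with the largest footprint change at 18 h against the one with the smallest, so this separation gives no separate evidence. In mRNA-seq the ratio was 0.942, 1.51 and 1.06 in control and 0.704, 2.61 and 1.52 in CPA18, so the groups overlapped there.

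Eif2a encodes eIF2A, a separate protein that can deliver initiator tRNA without eIF2 and is not the α subunit of eIF2. It was the initiation factor whose mRNA fell at 18 h, from 8.27, 4.71 and 2.50 RPKM to 1.73, 3.08 and 0.958 RPKM, by 1.16 ± 0.47 (adjusted p = 0.0416). The groups overlapped, and Eif2a had few reads, 4 to 67 in a library with a median of 13. The call was lost in 8 of 9 fits without a single library, with an adjusted p up to 0.236. Of these fits it held only in the one without CPA1 experiment 3. It was also lost without the block and without the filter on low counts. Its footprints, at 29.4, 22.2 and 26.6 RPKM in control and 25.6, 23.3 and 14.8 RPKM in CPA18, changed by -0.38 ± 0.32 (adjusted p = 0.385). Eif2d, which can also place tRNA on the start codon, entered only the fit without the filter on low counts, where its mRNA rose by 1.26 ± 0.40 (adjusted p = 0.0149) and its footprints changed by 0.80 ± 0.62 (adjusted p = 0.609).

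eIF2B is the exchange factor of eIF2, with a catalytic part of the subunits γ (Eif2b3) and ε (Eif2b5) and a regulatory part of α (Eif2b1), β (Eif2b2) and δ (Eif2b4) that senses phosphorylated eIF2. At 18 h 3 of the 5 mRNAs rose, where 27.0% of all genes did, and 2 of the 5 gained footprints, where 25.6% did. With the total lacking Ins1, Ins2 and Lars2 the counts were 3 and 1. Eif2b4 mRNA went from 10.96, 32.7 and 35.6 RPKM to 31.7, 97.9 and 106 RPKM, with log2 ratios of 1.54, 1.60 and 1.57 and a fitted rise of 1.55 ± 0.29 (adjusted p = 4.01e-06). The control and CPA18 values overlapped across experiments, since experiment 1 was low in both, while the ratio within experiments was nearly constant.

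Eif2b4 footprints rose from 32.3, 35.4 and 49.6 RPKM to 94.0, 63.3 and 91.7 RPKM without overlap, by 1.07 ± 0.24 (adjusted p = 0.000248), a call lost with DESeq2. Eif2b3, measured on 1 of its 3 transcripts, rose by 1.58 ± 0.44 in mRNA-seq (adjusted p = 0.00266, lost without control or CPA18 experiment 2) and by 1.41 ± 0.50 in Ribo-seq (adjusted p = 0.0218). The Ribo-seq call of Eif2b3 was lost without control experiment 2 or 3 or CPA18 experiment 1 or 3, with the alternative total (adjusted p = 0.0547) and without the block (adjusted p = 0.0603). Eif2b1 rose in mRNA-seq, by 1.20 ± 0.32 (adjusted p = 0.00133), and its footprints of 27.2, 17.6 and 18.4 RPKM and 53.3, 12.2 and 24.2 RPKM overlapped, with a change of 0.42 ± 0.33 (adjusted p = 0.343).

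The other eIF2B subunits did not pass at 18 h. Eif2b2, the most abundant of the complex in footprints per length, changed by 0.39 ± 0.26 in mRNA-seq (adjusted p = 0.236) and 0.27 ± 0.22 in Ribo-seq (adjusted p = 0.361). Eif2b5 changed by 0.54 ± 0.29 (adjusted p = 0.141) and 0.70 ± 0.30 (adjusted p = 0.0599), and its 3 CPA18 footprint values of 30.3, 26.97 and 34.6 RPKM lay above its control values of 22.4, 15.2 and 20.9 RPKM.

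At 18 h the eIF3 subunits moved in different directions in Ribo-seq. Footprints on Eif3b, Eif3c, Eif3d, Eif3g and Eif3i rose and those on Eif3e fell, while the other 7 genes did not pass. Eif3c, a core subunit that binds eIF1 and eIF5, had the largest rise, from 227, 167 and 197 RPKM to 444, 525 and 382 RPKM, by 1.18 ± 0.16 (adjusted p = 1.73e-09). Eif3g, an RNA-binding subunit, rose from 149, 141 and 144 RPKM to 307, 383 and 292 RPKM, by 1.15 ± 0.20 (adjusted p = 8.24e-07). Eif3d, which can itself bind the cap of some mRNAs, rose by 0.93 ± 0.23 (adjusted p = 0.000687), and Eif3b by 0.84 ± 0.18 (adjusted p = 0.000107). Both calls were lost with the median gene as centre and with DESeq2. Eif3i rose by 0.62 ± 0.19 (adjusted p = 0.00655), which was lost without CPA18 experiment 2 (adjusted p = 0.117) and with the alternative total (adjusted p = 0.0649).

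Eif3e had 178, 105 and 108 RPKM in CPA18 against 190, 187 and 210 RPKM in control, a fall of 0.64 ± 0.20 (adjusted p = 0.0101). The fall was seen in experiments 2 and 3, with log2 ratios of -0.83 and -0.96, and was small in experiment 1, at -0.10. It was lost without control experiment 3, CPA18 experiment 2 or CPA18 experiment 3, with adjusted p of 0.274, 0.0777 and 0.0773, and without the block (adjusted p = 0.0551), and with the alternative total it was -0.82 (adjusted p = 0.00074). The Ribo-seq ratio of Eif3c to Eif3e in a library, a pair chosen after their values were seen, was 1.20, 0.891 and 0.940 in control, 1.41, 2.00 and 2.63 in CPA1 and 2.50, 4.98 and 3.54 in CPA18. In mRNA-seq it was 2.02, 4.18 and 7.83 in control and 4.17, 7.83 and 11.7 in CPA18, so the groups overlapped there.

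Eif3f, which had lost the most footprints at 1 h, was at 225, 399 and 272 RPKM at 18 h and overlapped its control values, with a log2 change of 0.22 ± 0.18 (adjusted p = 0.357). Eif3h changed by 0.03 ± 0.18 (adjusted p = 0.916) and Eif3k by -0.22 ± 0.22 (adjusted p = 0.48). In mRNA-seq 5 of the 13 eIF3 genes rose and none fell, where 27.0% of all genes rose. Eif3g went from 32.3, 109 and 171 RPKM to 121, 368 and 403 RPKM, by 1.56 ± 0.26 (adjusted p = 1.51e-07), with ratios above 1 in all experiments, and Eif3d rose by 1.51 ± 0.26 (adjusted p = 6.90e-07). Eif3b and Eif3c rose by 1.23 ± 0.25 and 1.13 ± 0.24, and Eif3m by 0.83 ± 0.31 (adjusted p = 0.0244), which was lost without control or CPA18 experiment 2 or 3. Eif3e, Eif3f and Eif3h mRNA changed by 0.28 ± 0.32, 0.43 ± 0.24 and 0.49 ± 0.25 and did not pass.

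**Figure D4:**
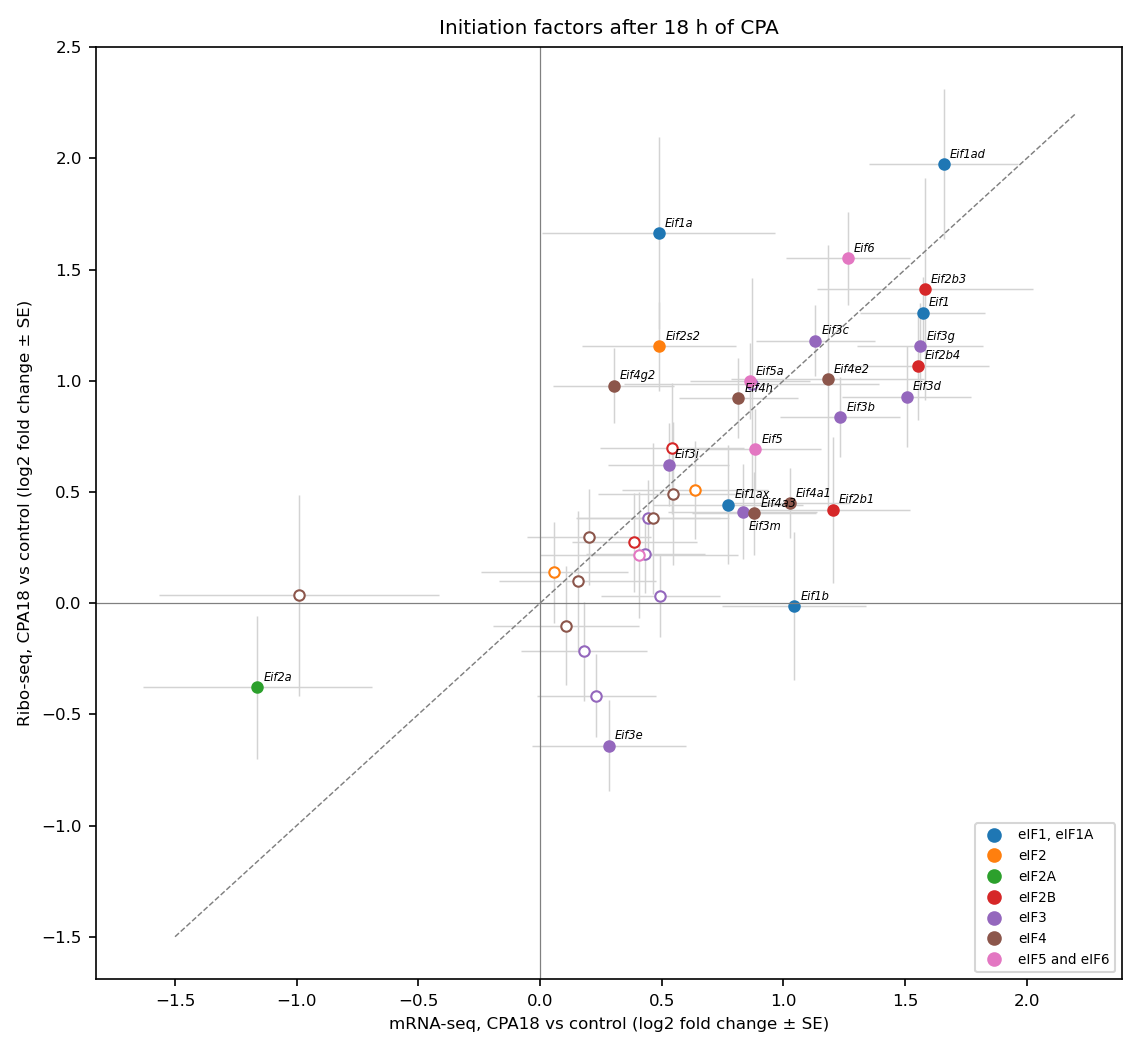
Log2 fold change of CPA18 against control in mRNA-seq (x axis) and Ribo-seq (y axis) for the 42 initiation factors, with SE bars and colours by factor. Filled, labelled points passed in at least 1 assay and the dashed line marks equal change, with Eif2s2 (0.49 and 1.15) and Eif4g2 (0.30 and 0.98) above it and Eif1b (1.04 and -0.01) and Eif3e (0.28 and -0.64) below it.

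In the eIF4 group the helicase and the eIF4G relative rose while the cap-binding protein and the main scaffold did not pass. Eif4a1, the main eIF4A gene, rose in mRNA-seq from 164, 256 and 363 RPKM to 295, 633 and 668 RPKM, by 1.03 ± 0.25 (adjusted p = 0.000412). Its footprints were 459, 461 and 499 RPKM in control and 654, 651 and 636 RPKM in CPA18, apart in all libraries, and rose by 0.45 ± 0.16 (adjusted p = 0.0192). This rise did not pass with the alternative total (0.27, adjusted p = 0.201), without the block (adjusted p = 0.0592) or without control experiment 1 or 2 or CPA18 experiment 1 or 3. The paralogue Eif4a2 changed by 0.11 ± 0.30 in mRNA-seq (adjusted p = 0.812) and -0.10 ± 0.27 in Ribo-seq (adjusted p = 0.805).

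Eif4g2 footprints, already higher at 1 h, were 113, 88.3 and 88.9 RPKM at 18 h, a rise of 0.98 ± 0.17 over control (adjusted p = 1.09e-06) that held in each fit without a single library. Its mRNA went from 46.6, 18.0 and 14.8 RPKM to 37.1, 26.9 and 23.8 RPKM, with a change of 0.30 ± 0.25 (adjusted p = 0.352). Eif4g1, the main scaffold of eIF4F, had 11.8, 9.67 and 8.81 RPKM in control and 17.5, 4.52 and 11.3 RPKM in CPA18 in Ribo-seq, with a change of 0.10 ± 0.31 (adjusted p = 0.836). Its mRNA changed by 0.16 ± 0.32 (adjusted p = 0.739). Eif4g3, the remaining scaffold gene, had 4.56, 4.39 and 1.97 RPKM in control and 2.96, 11.1 and 2.90 RPKM in CPA18 in Ribo-seq and entered only the fit without the filter, where it did not pass in any comparison.

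The cap-binding protein Eif4e changed by 0.54 ± 0.31 in mRNA-seq (adjusted p = 0.155) and 0.49 ± 0.32 in Ribo-seq (adjusted p = 0.244). Its Ribo-seq log2 ratios of 1.52, 0.23 and -0.06 differed among experiments. Eif4e2, the cap-binding relative 4EHP that represses translation, rose in mRNA-seq from 2.55, 4.30 and 4.78 RPKM to 4.28, 9.77 and 12.8 RPKM, by 1.18 ± 0.40 (adjusted p = 0.0124). The call was lost without control or CPA18 experiment 2 or 3, and with the alternative total (adjusted p = 0.0503), and the footprints did not pass at 1.01 ± 0.60 (adjusted p = 0.288). Its values rest on 1 of its 4 transcripts, with 1 to 105 reads in a library, where all its transcripts together had 2 to 316. Eif4e3 changed by -0.99 ± 0.58 in mRNA-seq (adjusted p = 0.171) and 0.04 ± 0.45 in Ribo-seq (adjusted p = 0.966).

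Eif4h and Eif4b both stimulate the eIF4A helicase. Eif4h rose in both assays, by 0.82 ± 0.24 in mRNA-seq (adjusted p = 0.00506, lost without control experiment 2 or 3 or CPA18 experiment 2) and in Ribo-seq from 93.0, 78.7 and 125 RPKM to 190, 175 and 195 RPKM, by 0.92 ± 0.18 (adjusted p = 2.03e-05). Eif4b changed by 0.20 ± 0.26 (adjusted p = 0.566) and 0.30 ± 0.22 (adjusted p = 0.304). Eif4a3, an exon junction protein related to eIF4A, rose in mRNA-seq by 0.88 ± 0.25 (adjusted p = 0.00347, lost without control or CPA18 experiment 2) and did not pass in Ribo-seq at 0.40 ± 0.19 (adjusted p = 0.0853).

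Of the late-acting factors, Eif5 (the GTPase activator of eIF2), Eif5a (the hypusine-bearing factor that helps elongation and termination) and Eif6 (which keeps the large subunit from joining the small one) rose in both assays. Eif6 footprints went from 72.5, 66.9 and 73.5 RPKM to 191, 267 and 178 RPKM, by 1.55 ± 0.21 (adjusted p = 1.00e-09), and its mRNA rose by 1.26 ± 0.26 (adjusted p = 1.86e-05). Eif5a footprints went from 243, 210 and 300 RPKM to 496, 443 and 558 RPKM, by 1.00 ± 0.17 (adjusted p = 9.05e-07). No CPA18 library overlapped control in either case. The footprint call of Eif5a was lost with the highest transcript per gene.

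Eif5a mRNA rose by 0.86 ± 0.25 (adjusted p = 0.00309), a call lost without control or CPA18 experiment 2 (adjusted p up to 0.0651). Eif5, whose start context is shown above and whose leaders hold upstream ATG codons, rose by 0.88 ± 0.27 in mRNA-seq (adjusted p = 0.00614, lost without control experiment 2 or 3 or CPA18 experiment 3) and by 0.69 ± 0.18 in Ribo-seq (adjusted p = 0.00159). Leaving out control experiment 1 took the footprint rise of Eif5 to 0.53 (adjusted p = 0.0539). That rise was also lost with TMM scaling, with the median gene as centre, with limma and with DESeq2. The mRNA call of Eif5 was lost without the block, with TMM scaling, with the median gene as centre and with DESeq2. Eif5b, the GTPase of subunit joining, changed by 0.41 ± 0.41 in mRNA-seq (adjusted p = 0.46) and 0.22 ± 0.28 in Ribo-seq (adjusted p = 0.593), with footprints of 9.06, 10.3 and 8.41 RPKM in control and 6.87, 5.68 and 15.5 RPKM in CPA18.

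**Figure D5:**
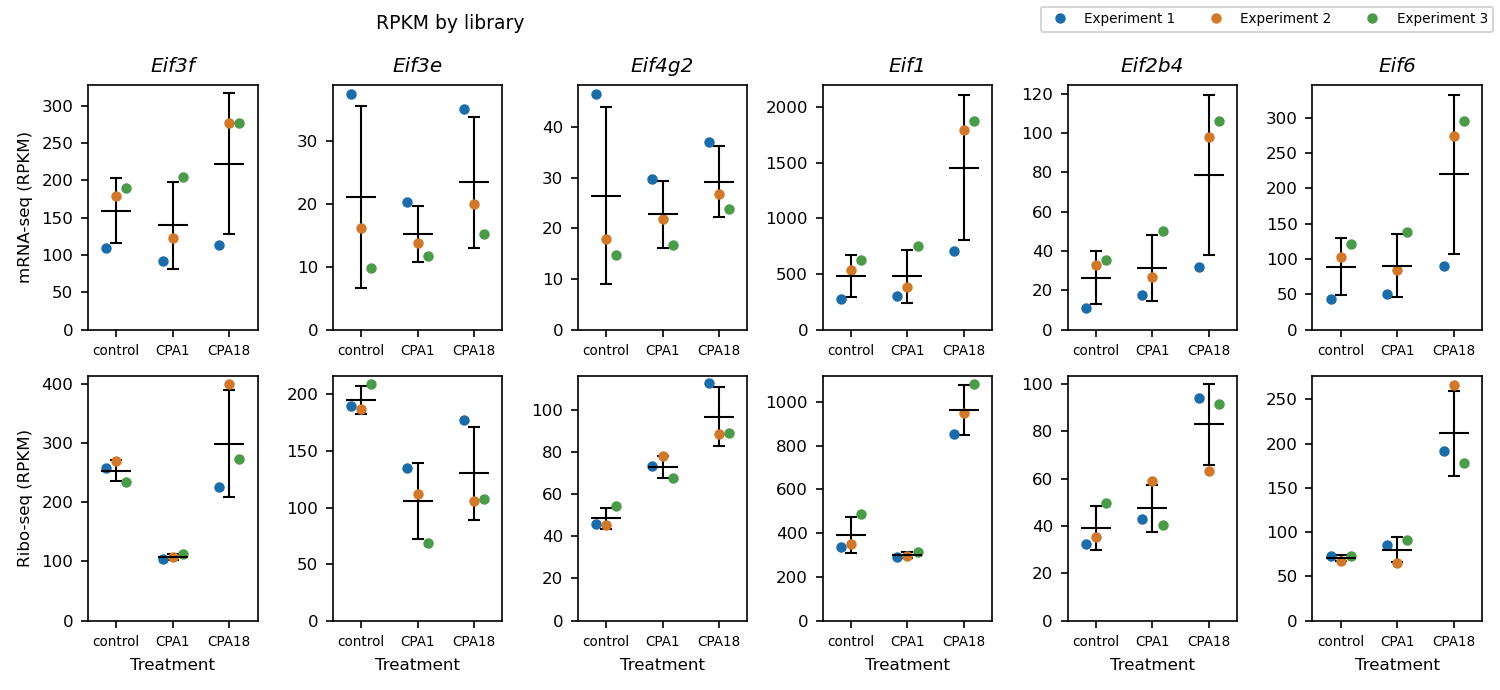
RPKM per library (y axis) of Eif3f, Eif3e, Eif4g2, Eif1, Eif2b4 and Eif6 in control, CPA1 and CPA18 (x axis), with mRNA-seq and Ribo-seq shown apart, points for experiments and bars for the mean with its SD (n = 3). Eif3f footprints drop to 104 to 113 RPKM in CPA1 and return to 225 to 399 RPKM in CPA18, while Eif1 and Eif6 are highest in CPA18 in Ribo-seq.

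Between 1 h and 18 h of CPA the called changes were rises. In mRNA-seq 24 of 42 genes rose (57.1%) and none fell, where 33.8% of all genes rose and 5.77% fell, and in Ribo-seq 20 rose (47.6%), where 18.2% rose and 5.41% fell. With the alternative total 14 mRNAs rose, against 17.6% of all genes (13.3% fell), and 11 genes gained footprints, against 12.1% (7.59% fell). With at least 10 reads in every library 19 of 30 members rose in mRNA-seq and 22 in Ribo-seq, where 1080 and 897 of 2296 genes did. None of the 30 fell, where 170 and 228 genes did. Without the block 0 of 42 mRNAs passed in edgeR, with 11 at an unadjusted p under 0.05 and 2.16% of all genes called. This comparison shares the CPA18 libraries with the one above and so gives no separate evidence on them.

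Eif3f footprints rose by 1.45 ± 0.20 between the times (adjusted p = 9.78e-10), in all 3 experiments and with either total (1.26, adjusted p = 9.08e-08, with the alternative). Its mRNA rose by 0.64 ± 0.24 (adjusted p = 0.0255), which was lost without control experiment 2, CPA1 experiment 1 or 2 or CPA18 experiment 2 or 3, and was 0.22 (adjusted p = 0.153) with the alternative total. Other large rises of footprints were those of Eif1ad (2.05 ± 0.37), Eif1 (1.67 ± 0.17), Eif6 (1.37 ± 0.22) and Eif3g (1.34 ± 0.21). In mRNA-seq the largest were those of Eif1ad (1.80 ± 0.30), Eif2b3 (1.79 ± 0.44), Eif1 (1.58 ± 0.26), Eif3d (1.49 ± 0.26) and Eif4e2 (1.46 ± 0.40). The rise of Eif2b3 was lost without CPA1 or CPA18 experiment 2 (adjusted p up to 0.09).

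Ribosome occupancy, the Ribo-seq level divided by the mRNA-seq level, was tested as the difference between the changes in the 2 assays. No initiation factor passed in edgeR at 1 h, at 18 h or between the times, where 0.0866%, 0.476% and 0.0722% of all genes passed in either direction. At an unadjusted p under 0.05 there were 3, 4 and 3 of 42, and with DESeq2 1, 0 and 1 passed after adjustment, with limma 0 in each. DESeq2 called 14 rises and 29 falls among 1556 genes at 1 h and 35 and 24 among 3839 at 18 h. Between the times it called 33 and 6 among 1153. The medians of the members were 0.00, -0.13 and -0.07 and those of all genes 0.16, 0.05 and -0.11. They depend on the scaling. With the total lacking Ins1, Ins2 and Lars2 they were -0.18, -0.05 and 0.19 for the members and -0.02, 0.12 and 0.14 for all genes. In the main edgeR fit a difference between the mRNA and footprint changes of a single factor was thus not detected, while single members passed in some alternatives.

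Eif3f came closest at 1 h, with an occupancy change of -1.02 ± 0.31 (adjusted p = 0.309) and log2 ratios of -1.05, -0.79 and -1.16. With the alternative total it was -1.22 and passed (adjusted p = 0.0149), as 1 of 42 members against 0.433% of all genes. Eif3k, Eif3e and Eif4g2 changed by -0.76 ± 0.34, -0.65 ± 0.37 and 0.66 ± 0.31 and did not pass. At 18 h the lowest values were those of Eif1b (-1.08 ± 0.43, adjusted p = 0.406) and Eif3e (-0.93 ± 0.37, adjusted p = 0.401). Eif4g2 and Eif2s2 had 0.68 ± 0.31 (adjusted p = 0.494) and 0.64 ± 0.41 (adjusted p = 0.649).

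To compare genes with each other, the Ribo-seq RPKM were recomputed with the length of the coding sequence in place of that of the transcript. On this scale Eif1 led in control, at 1461 ± 309, followed by Eif4a1 at 773 ± 37.6 and Eif5a at 724 ± 134 (SD, n = 3), of which the last 2 do not differ beyond their spread. The helicase thus had far more footprints than the cap-binding protein Eif4e (86.8 ± 22.3) and the scaffold Eif4g1 (11.5 ± 1.78), and Eif4g2 stood at 140 ± 14.2. The eIF2 subunits were close to each other, at 151 ± 45.4 for Eif2s2, 134 ± 9.81 for Eif2s1 and 93.2 ± 9.45 for Eif2s3x. By 18 h they were at 335 ± 11.7, 192 ± 45.5 and 108 ± 30.5.

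eIF2B subunits were less even, from 128 ± 18.9 for Eif2b2 through 46.7 ± 10.3 for Eif2b4, 46.2 ± 11.7 for Eif2b1 and 23.1 ± 4.55 for Eif2b5 to 9.81 ± 3.43 for Eif2b3, where Eif2b4 and Eif2b1 do not differ beyond their spread. Of the 3 RefSeq transcripts of Eif2b3, 1 had reads in all libraries and gave its values, with 2 to 91 reads in a library. All its transcripts together had 4 to 255, so its place as the lowest was read from that transcript alone. Among 12 eIF3 subunits (without Eif3j2) the highest level was 6.09 times the lowest in control (Eif3f at 351, Eif3d at 57.7), 3.12 times in CPA1 (Eif3h at 220, Eif3d at 70.3) and 4.39 times in CPA18 (Eif3c at 476, Eif3d at 108). Eif3d was the lowest and Eif3f went from the first place in control to the fifth in CPA1 and the second in CPA18. Eif3c moved the other way, from the seventh to the second and the first.

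The regulators of initiation that are not members were followed as a list of 24 genes, of which 19 were fitted. At 1 h none passed in mRNA-seq in edgeR, with 2 at an unadjusted p under 0.05, where 0.505% of all genes rose and 0.433% fell. Footprints then rose on 3 (15.8%) and fell on 2 (10.5%), where 3.75% and 2.92% of all genes did. With the total lacking Ins1, Ins2 and Lars2, 1 mRNA rose at 1 h, that of Ppp1r15a at 0.96 (adjusted p = 0.00454), where 0.404% of all genes rose. At 18 h 5 mRNAs rose (26.3%) and 1 fell (5.26%), near the 27.0% and 7.89% of all genes, and footprints rose on 7 (36.8%) and fell on 2 (10.5%), where 25.6% and 6.25% of all genes did. With the alternative total 4 mRNAs rose and 3 fell, against 21.2% and 12.4% of all genes, and 5 genes gained and 2 lost footprints, against 17.5% and 8.57%. The 8 genes named here were chosen after their values were seen. Ppp1r15a (GADD34), the phosphatase subunit that reverses eIF2α phosphorylation, gained footprints by 2.09 ± 0.23 at 1 h (adjusted p = 3.29e-12) and by 4.78 ± 0.22 at 18 h, with an mRNA rise of 4.58 ± 0.29 at 18 h. Its constitutive relative Ppp1r15b rose by 1.79 ± 0.27 in mRNA and 2.02 ± 0.20 in footprints at 18 h.

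Eif4ebp1, which blocks eIF4E, rose by 2.998 ± 0.312 in mRNA-seq and 3.61 ± 0.37 in Ribo-seq at 18 h, where Eif4e itself did not pass. Eif2ak3 (PERK) rose by 1.24 ± 0.39 and 1.32 ± 0.41. Pdcd4, an inhibitor of eIF4A, fell by 0.94 ± 0.38 in mRNA-seq (adjusted p = 0.04) and by 1.28 ± 0.39 in Ribo-seq (adjusted p = 0.00695). Pabpc1, the poly(A)-binding protein that contacts eIF4G and is a TOP mRNA, lost footprints by 1.94 ± 0.24 at 1 h (adjusted p = 1.81e-10) and by 0.93 ± 0.23 at 18 h (adjusted p = 0.000953). Gcn1, a partner of the kinase GCN2, fell by 0.75 ± 0.18 and Impact, which opposes it, rose by 1.34 ± 0.39 in Ribo-seq at 1 h (adjusted p = 0.00195 and 0.0172).

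Other parts of the translation machinery are given for comparison. Of 82 ribosomal protein genes, 55 lost footprints at 1 h (67.1%) and none gained them, with a median log2 change of -0.63. At 18 h 70 gained (85.4%) and none lost them, with a median of 0.83. Of 6 elongation factor genes, 4 lost footprints at 1 h (66.7%), with a median of -0.96. None passed at 18 h in edgeR, with 1 at an unadjusted p under 0.05. Of all genes 3.75% rose and 2.92% fell at 1 h, and 25.6% rose and 6.25% fell at 18 h. With the alternative total the ribosomal protein genes had 57 falls at 1 h and 61 rises at 18 h, and the elongation factor genes 4 falls at 1 h and 1 fall at 18 h. With that total 3.10% of all genes fell at 1 h, and 17.5% rose and 8.57% fell at 18 h. The initiation factors, with 4 of 42 lower at 1 h and a median of -0.08, lay nearer to all genes, whose median was 0.07. These differences between lists were not tested. In mRNA-seq none of the 82 ribosomal protein genes passed at 1 h. At 18 h 60 mRNAs rose (73.2%) and none fell, with a median of 0.71, where 27.0% of all genes rose. For occupancy none of the 82 passed at 1 h or 18 h in the main fit. With the alternative total 11 fell in occupancy at 1 h, where 0.433% of all genes passed in either direction.

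Some members share sequence with other genes, so reads as short as these cannot always be placed. In windows of 30 bases, 94.4% of Eif3j2 was shared, nearly all of it with Eif3j1. Eif4a3 and Eif4a3l1 shared 32.1% and 30.6% of their windows, mostly with each other, and Eif1 shared 25.3% with Emd. Eif3i shared 7.13%, Eif1a 6.67% and the other members at most 1.82%. Values of Eif3j2, which did not pass in any comparison, and of Eif4a3 and Eif4a3l1 are therefore uncertain, and those of Eif1 may hold reads of Emd. Eif4a3l1 changed by 0.46 ± 0.31 in mRNA-seq and 0.38 ± 0.34 in Ribo-seq at 18 h and did not pass.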

How the data were processed

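MIN6 cells were profiled by mRNA-seq and Ribo-seq in 3 independent experiments (18 libraries). The authors kept reads that passed a quality filter and a length window, aligned them with Bowtie2 (version not given in the sources used here) to the mouse RNA reference GRCm38.p6, and deposited raw counts per RefSeq transcript. The deposited RPKM scale these counts to the library total and to the transcript length, which the authors list as well. RPKM recomputed from the counts differed by at most 0.00111 on the log2 scale. Libraries were grouped by their titles, and for the 2 control libraries of experiment 2, whose descriptions name the other assay, the titles and the table headers were followed.

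Of 30741 transcripts, 30232 matched the RefSeq annotation with their version, 478 without it and 31 not at all. A transcript was kept when none of the 18 libraries lacked it, and the 10163 such transcripts were added up to 6929 genes. The 42 tested members took 63 of these transcripts, and RPKM were summed over the transcripts of a gene. Total counts ran from 168129 to 4755030, and the lowest totals were those of CPA18 Ribo-seq in experiments 1 and 2 (168129 and 203108).

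Genes were tested with edgeR 4.0.16 (quasi-likelihood, R 4.3.3) on the counts, with the library total as size, the 9 libraries of an assay fitted jointly and the experiment as a block. Occupancy was the assay-by-treatment interaction in a fit of all libraries, which had a block term per experiment within each assay. Benjamini-Hochberg adjustment covered 6929 genes with a threshold of 0.05, and the SE is the log2 change divided by the root of F. Fold changes are log2 values. The pairing comes from the labels, which number the experiments as batches. Deviations from the treatment means of libraries of the same experiment correlated with a mean r of 0.523 (0.104 to 0.714) in mRNA-seq and 0.132 (0.0781 to 0.182) in Ribo-seq, over 9 pairs each. The labels do not say whether the experiments used separate passages. With the experiment as a block, the p-values cover the spread of the changes among experiments and not that of the levels.

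The alternatives were fits without the block, with TMM scaling, with totals lacking Ins1 and Ins2 or these and Lars2, centred on the median gene, with at least 10 reads in every library or no filter, with the highest transcript per gene, limma 3.58.1 on log2(RPKM + 0.5) and log2(RPKM + 1), DESeq2 1.42.0, and without each library or experiment. The script was tested on simulated data. Sequences come from RefSeq tables and the GRCm38.p6 genome, and promoter entries were found for 35 of 44 members. Figures were made with Python 3.11.15 and matplotlib 3.10.9.

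The members and lists were chosen with earlier results of these data known. Named are all subunits of eIF2, eIF2B and eIF4F with their relatives, the scanning and joining factors, Eif3e, Eif3f and Eif3h, and in each comparison at most 5 of the largest called rises and falls with the same sign in all 3 experiments. Other eIF3 subunits are given by range or as examples of their group.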

Additional observations from a re-analysis of the deposited data

How the results depend on the processing

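No called result changed direction under any alternative. The number of members called in mRNA-seq was 20 at 18 h against control, 0 without the replicate block, 11 with DESeq2 and 10 to 23 when a library or an experiment was left out. Of all 6929 genes 1874 rose and 547 fell in the main fit and 99 and 38 without the block. With DESeq2 773 rose and 965 fell of 6660 genes. Between 1 h and 18 h it was 24 in mRNA-seq, 0 without the replicate block, 14 with TMM scaling, with the total lacking Ins1, Ins2 and Lars2 and with the median gene as centre, 12 with DESeq2 and 13 to 27 when libraries or experiments were left out. Of all genes 2343 rose and 400 fell in the main fit and 109 and 41 without the block. The counts were 1058 and 1092 with TMM scaling, 1221 and 919 with that total and 1128 and 984 with the median gene. With DESeq2 816 rose and 829 fell of 6526 genes. In Ribo-seq the 5 calls at 1 h became 3 without the replicate block, 3 with the highest transcript per gene and 0 with limma at either pseudocount (5 at an unadjusted p under 0.05 with each), and 3 to 6 when libraries or experiments were left out. Of all genes 260 rose and 202 fell in the main fit, 140 and 79 without the block and 224 and 154 with the highest transcript. Limma called 9 rises and 1 fall at the lower pseudocount and 20 and 4 at the higher. The 18 calls at 18 h became 11 with DESeq2 and 13 to 20 in the fits with fewer libraries. Of all genes 1772 rose and 433 fell in the main fit, and with DESeq2 473 rose and 602 fell of 5182. The 20 Ribo-seq calls between the times became 9 with TMM scaling, 11 without Ins1 and Ins2 in the total, 11 also without Lars2, 9 with the median gene as centre, 11 and 12 with limma at pseudocounts of 0.5 and 1, 9 with DESeq2 and 12 to 21 with fewer libraries. Of all genes 1262 rose and 375 fell in the main fit. In the same order of alternatives 607, 815, 838, 657, 988 and 1094 rose and 714, 543, 526, 654, 263 and 289 fell. With DESeq2 449 rose and 511 fell of 5182 genes. For occupancy at 1 h 1 member passed with TMM scaling, 1 with the total lacking Ins1, Ins2 and Lars2, 1 with DESeq2 and 0 to 1 with fewer libraries, and between the times 1 passed with DESeq2. At 1 h 7 of all genes rose and 12 fell with TMM scaling, and 7 and 23 with that total. With DESeq2 14 rose and 29 fell of 1556 genes at 1 h, and 33 and 6 of 1153 between the times. Fits with fewer libraries estimate the spread from fewer samples. The cause of the other shifts was not tested. The replicate block changed the calls of mRNA-seq most.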
